A study of Homo sapiens with 8 samples.

Results

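The imprinted gene loci of DLK1, MEG3, GNAS, PEG10, SGCE, MEST, PEG3, PLAGL1, GRB10 and SNRPN held 42 of the 47470 CTCF peaks of control HT1080 cells and 33 of the 29558 CTCF peaks of cells treated with CBL0137. The peaks were chosen by position alone. A peak was a member if it lay within the body of 1 of these 10 genes or within 100 kb on either side. The exception was the left part of the PEG10 and SGCE window, towards the neighbouring COL1A2 region, which was left out. The part left out includes the 3′ end of the SGCE body, so any peak there was not a member. Windows that touched were merged, which gave 8 loci of 2340 kb in all. HT1080 is a human fibrosarcoma line that the labels describe as ras +, and CBL0137 is a curaxin, an anti-cancer compound that intercalates into DNA. Control cells were untreated, and treated cells were exposed to 3 µM CBL0137 for 6 h. Chromatin was immunoprecipitated with a polyclonal antibody against CTCF, and each condition had 2 biological replicates with a ChIP and an input library each, 8 libraries in total. All of them come from a single cell line.

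Imprinted genes are expressed mainly from the allele inherited from 1 parent, and the choice is set by differential methylation of DNA at control regions that often lie in CpG-rich promoters. CTCF is a zinc-finger protein that stops the extrusion of chromatin loops and separates neighbouring regulatory domains, and methylation of CpGs within its site can hinder its binding. At several imprinted clusters CTCF binds the unmethylated allele only. The peak lists do not separate alleles, so every value below is a sum over both.

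Each list was called by the authors on both replicates of a condition together, so a peak has 1 fold enrichment of ChIP over input per condition and no error between replicates. The lists hold no read counts, so the depth behind a peak is unknown. A control peak is called kept if it overlaps a treated peak by at least 1 bp and lost if it does not, and a treated peak without an overlapping control peak is called new. The authors also compared both conditions directly, and the sites they list as higher in control or in treated cells are used here by position only. Intervals given for shares are Wilson 95% intervals and cover counting error alone. No test between conditions was made here, since the list of a condition holds 1 fold enrichment per peak. The p-values of the authors' direct comparison were not used. Kept, lost and new are descriptions of the lists.

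Sequences that resemble a CTCF site are shown first, for some of the kept, lost and new peaks. A CTCF core, CCANNAGNNGGC on either strand, was searched in 400 bp around each peak centre, as was the CTCF consensus of the same length, which allows fewer bases at its open positions, with at most 1 mismatch. Below are 30 bases around the best consensus match in the strongest kept and the strongest lost peak with a core match of a locus. Matches in some new peaks and in peaks at a transcript start of an imprinted gene are added. The matches in both new GRB10 peaks, with no CpG in their 30 bases, are not printed. Peaks without a match, such as those at the PEG10-SGCE and MEST starts, are not shown either. All printed stretches are read from hg19 (GRCh37) along the strand of the match, with the match in capitals.
MEG3 gene body, kept, chr14:101317451-101317900, plus strand: aggttttgcCCACCAGGGGGCagcagaggg
MEG8 intron, lost, chr14:101372851-101373100, plus strand: ggtgcctatCCACTAGATGGCactctctac
MEG8 start, new, chr14:101370801-101370950, plus strand: ccccacgtgCCACAAGGGGGCtgcctgggc
MEG3 intron, new, chr14:101294551-101294650, minus strand: tggcacacaCCGCTAGGGGGCgcgcggccc
PLAGL1 coding exon, kept, chr6:144263251-144263700, plus strand: ctgtgtggaCCACCAGGTGGCgtcgcacat
PLAGL1 intron, lost, chr6:144283751-144283900, minus strand: agtgaatgcCCAGCAGGCGGCtaaaccagt
GRB10 intron, kept, chr7:50700551-50701000, minus strand: ccctacaggCCAGTAGGTGGCgcttgcagt
GNAS start, kept, chr20:57427801-57428050, minus strand: ctctctctgCCACCAGAGGACgccggttcc
GNAS-AS1 start, new, chr20:57425801-57426100, minus strand: gtgggaggtCCAATAGGGGGCgccgcgttg
The kept site in MEG3, the lost site in MEG8, the kept site in PLAGL1 and the kept site in GRB10 match the consensus in full. The other sites differ from it at 1 base. These peaks were chosen for holding a match, so they say nothing of how often kept and lost peaks hold one, which is given further on over all peaks of the loci.

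The whole control peak is shown for both kept peaks that lie at sites the direct comparison lists as higher in treated cells, at PEG3 and at the SNORD116 snoRNA cluster of the SNRPN locus. Both are printed along the plus strand with the consensus match in capitals, which lies on the minus strand in each.
PEG3, chr19:57348851-57349050: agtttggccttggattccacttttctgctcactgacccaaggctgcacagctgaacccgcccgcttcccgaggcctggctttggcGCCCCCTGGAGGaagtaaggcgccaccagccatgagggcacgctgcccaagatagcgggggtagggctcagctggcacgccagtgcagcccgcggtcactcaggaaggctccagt
SNRPN locus, chr15:25301651-25301850: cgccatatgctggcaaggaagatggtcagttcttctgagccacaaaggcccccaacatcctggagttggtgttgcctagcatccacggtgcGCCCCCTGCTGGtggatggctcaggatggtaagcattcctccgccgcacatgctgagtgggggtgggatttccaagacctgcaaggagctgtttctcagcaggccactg
The PEG3 peak holds 10 CpG dinucleotides in its 200 bases and its match has 1 mismatch. The peak of the SNRPN locus holds 5 and matches the consensus in full.

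Of the 42 control peaks, 27 were kept and 15 were lost, a share lost of 35.7% (22.99 to 50.8%). Over all control peaks the share lost was 42.9%, which lies within this interval. Among the 33 treated peaks, 6 were new, beside 8.07% new over all treated peaks. The new peaks lay in the DLK1-MEG3, GRB10 and GNAS loci, with 2 in each. The direct comparison listed 16 of the 42 control peaks at sites higher in control cells, beside 51.2% of all control peaks. Of these 16 peaks, 10 were lost and 6 were kept, a share lost of 62.5% (38.6 to 81.5%), beside 65.7% lost among all control peaks at such sites. Sites higher in treated cells coincided with 5 of the 33 treated peaks, beside 7.25% of all treated peaks. Of the 5, 3 were new, beside 973 of the 2143 treated peaks at such sites over the whole list.

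**Figure D1:**
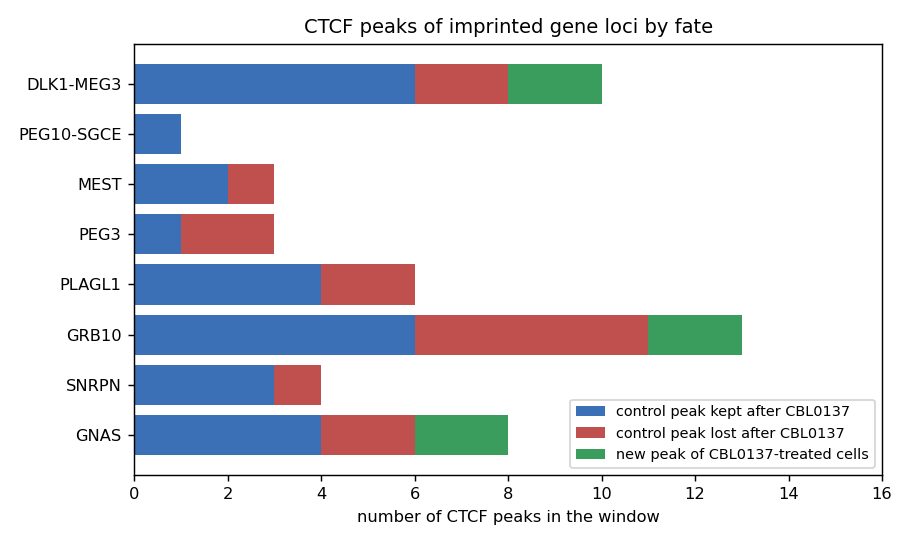
Number of CTCF peaks (x axis) in each imprinted gene locus (y axis), with control peaks kept after CBL0137, control peaks lost after CBL0137 and new peaks of treated cells stacked. GRB10 held 11 control peaks, of which 5 were lost, and PEG10-SGCE held 1, which was kept.

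The loci held 1.80 control peaks per 100 kb, beside 1.56 over the genome. GRB10, at 2.73 per 100 kb, and DLK1-MEG3, at 2.39, were the densest, and PEG10-SGCE, as cut on its left, was the sparsest at 0.502. That value depends on the cut, without which the loci held 45 control peaks in place of 42. The control peaks of the loci had a median fold enrichment of 23.2, with a range from 6.04 to 54.7, beside a median of 28.7 over all control peaks. Kept peaks had a median of 26.6 and lost peaks of 17.2, and the ranges of both overlapped. Over all control peaks the medians were 34.9 for kept and 20.6 for lost peaks.

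**Figure D2:**
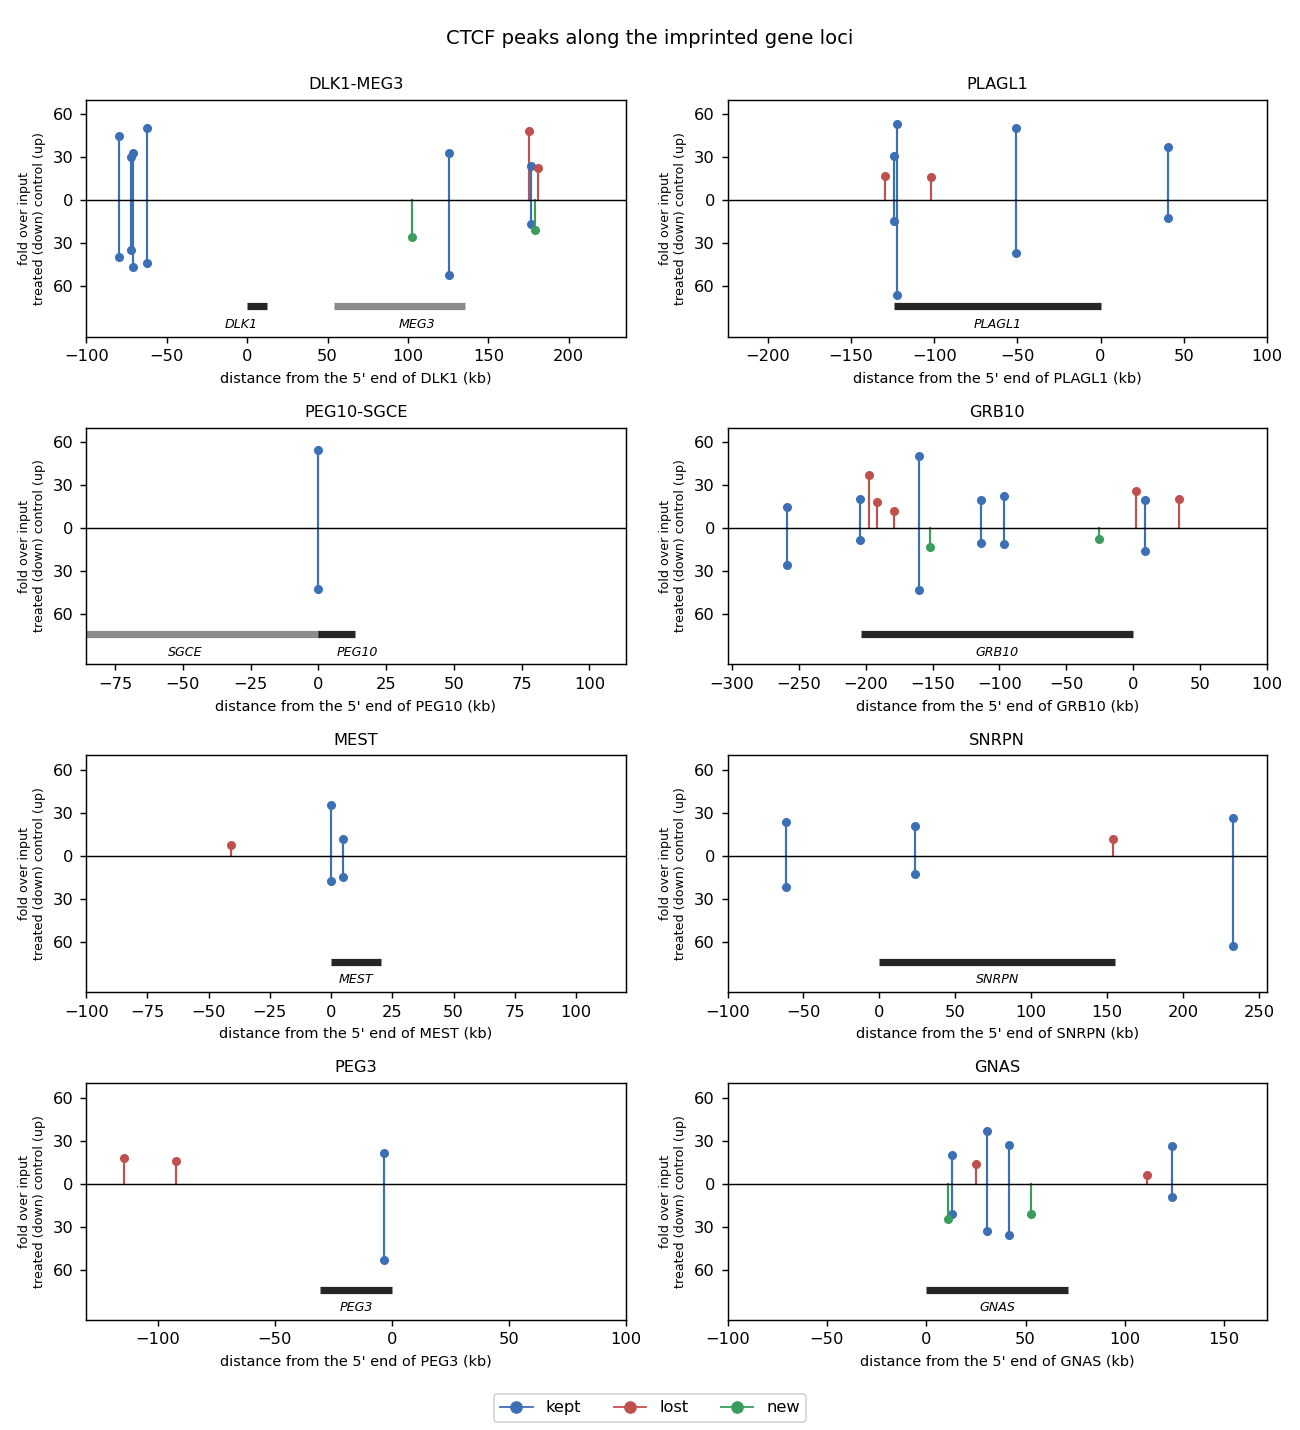
Fold enrichment of ChIP over input of each peak (y axis, control upward and CBL0137-treated downward) against distance from the 5′ end of a gene of the locus (x axis, kb), with gene bodies as bars. Lengths may be compared within a direction only, since each list was normalised on its own; in the PEG3 window the lost peaks lie far from the gene body and the kept peak within it.

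In the DLK1-MEG3 locus 6 of 8 control peaks were kept. DLK1, a paternally expressed growth regulator that resembles Notch ligands, had a cluster of 4 control peaks to its left and none within its body. The cluster lies around the noncoding gene LINC00523, and each of its peaks was kept. The strongest control peak of the locus was in the cluster, at chr14:101129501-101130050 in an exon of LINC00523, with a fold enrichment of 50.4 in control cells and 43.5 in treated cells. MEG3, a maternally expressed long noncoding RNA, held 1 control peak, in an exon at chr14:101317451-101317900. It had a fold enrichment of 33.0 in control and 52.3 in treated cells, which is percentile 61.9 of the control list and 90.4 of the treated list. A percentile here is the rank of the fold enrichment within its own list, from weakest to strongest, given because the folds cannot be divided. The lists differ in length, with 47470 control and 29558 treated peaks, and weak control peaks were lost most often. A percentile can therefore shift with the make-up of its list alone. Over all kept peaks the median change was -9.21 points, so a fall in percentile is not by itself a loss of binding.

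Both lost peaks of the DLK1-MEG3 locus lay to the right of MEG3, in introns of the maternal noncoding RNA MEG8. The peak at chr14:101367251-101367550 also lay within RTL1, a retrotransposon-derived gene of the opposite strand. It had a control fold enrichment of 48.0 and was the strongest lost peak of all 8 loci. Over the genome, 13.5% of control peaks in its decile of fold enrichment were lost. The other lost peak, at chr14:101372851-101373100, outside RTL1 and with a fold enrichment of 22.4, was centred 405 bp from a MEG8 transcript start. Both were at sites listed as higher in control cells. A control peak between them, at chr14:101368601-101368850, was kept with 23.9 in control and 16.3 in treated cells.

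A new peak lay among these peaks, at chr14:101370801-101370950. It was centred 42 bp from a MEG8 transcript start and 816 bp from the start of RTL1, and its fold enrichment in treated cells was 20.96. The other new peak of the locus lay in an intron of MEG3 at chr14:101294551-101294650, 852 bp from an annotated MEG3 transcript start, with a fold enrichment of 25.3. It was 100 bp wide, and its FDR of ChIP over input was 0.00147, where the largest of the treated list was 0.00221. The FDR of the new peak at the MEG8 start was 0.000216. Neither new peak was at a site listed as higher in treated cells. Within 500 bp of sequence the new peaks held 31 and 25 CpGs, respectively.

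PEG10, a paternally expressed gene derived from a retrotransposon, and SGCE, which encodes epsilon-sarcoglycan, share a promoter region from which they are transcribed in opposite directions. The single control peak of their window lay on it, at chr7:94285301-94285750, centred 3 bp from an SGCE start and 112 bp from the PEG10 start, in an untranslated region. With a control fold enrichment of 54.7 it was the strongest control peak of the 8 loci, and it was kept at 42.7 in treated cells. Its percentile was 94.8 in the control list and 79.4 in the treated list. The surrounding 500 bp held 35 CpGs, the most of any control peak in the loci. No match to the CTCF consensus with at most 1 mismatch was found around its centre.

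MEST, a paternally expressed gene of the alpha/beta hydrolase fold family, had 3 control peaks in its window. The strongest was centred 9 bp from a MEST start, at chr7:130125901-130126150, with a fold enrichment of 35.8 in control cells. It was kept at 17.4 in treated cells, its width went from 250 to 100 bp, and it lay at a site listed as higher in control cells. Its percentile was 68.9 in the control list and 23.2 in the treated list. The peak at chr7:130130801-130130900, in an exon of the antisense RNA MESTIT1, was centred 24 bp from the MESTIT1 start and 320 bp from another MEST start. It was kept with 12.1 in control and 14.5 in treated cells. The lost peak of the window, at chr7:130084901-130085100, was intergenic and weak, with a control fold enrichment of 7.52. Had an overlap of over 50% of the larger peak been required, each of the 3 control peaks would have been called lost.

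Of the 5 kept control peaks within 1 kb of a start of an imprinted gene, 2 had a lower percentile in the treated list than in the control list, with a change of -15.4 points at PEG10-SGCE and of -45.7 points at the stronger MEST peak. The other 3 had a higher one, with 8.59 points more at the second MEST peak, 8.00 at GNAS and 61.8 at PEG3. Of the 5, the stronger MEST peak was at a site listed as higher in control cells and the PEG3 peak at a site listed as higher in treated cells.

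PEG3, a paternally expressed zinc-finger gene that shares its promoter with ZIM2, had 3 control peaks in its window. The peak within the body of PEG3, at chr19:57348851-57349050 and 236 bp from an annotated PEG3 start, lies in an intron. It had a fold enrichment of 21.4 in control cells and 53.2 in treated cells, where it covered chr19:57348751-57349100. Its width went from 200 to 350 bp, and its percentile from 29.5 in the control list to 91.3 in the treated list. This gain of 61.8 percentile points was the largest of the 27 kept peaks of the loci, and the site was listed as higher in treated cells. In its decile of control fold enrichment, 65.7% of all control peaks were lost.

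Both other control peaks of the PEG3 window were lost. They lay in introns of the noncoding RNA ZIM2-AS1 at chr19:57237551-57237700 and chr19:57259901-57260100, with fold enrichments of 17.6 and 15.6, and both were at sites listed as higher in control cells. The window therefore held sites of both directions.

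**Figure D3:**
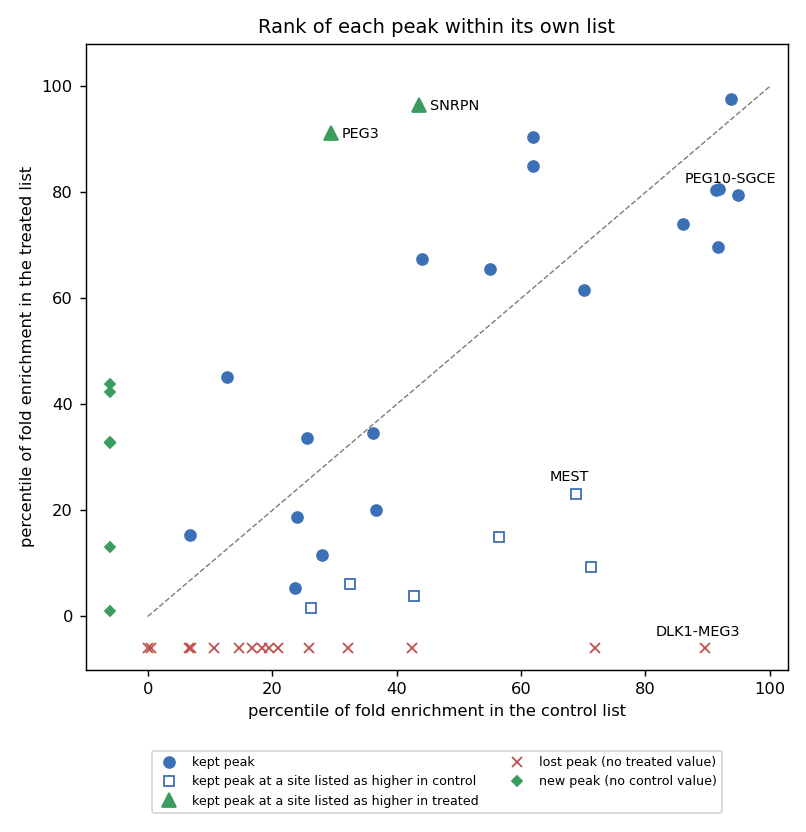
Percentile of fold enrichment of each peak in the treated list (y axis) against that in the control list (x axis), with lost peaks below and new peaks left of the axes' zero, since they have no value in the other list. The dashed line marks equal percentile, which is not equal binding, since the lists differ in length and make-up. The PEG3 and SNRPN peaks listed as higher in treated cells stand far above it, and the 6 kept peaks listed as higher in control cells stand below it.

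PLAGL1, a paternally expressed zinc-finger gene, had 6 control peaks in its window, of which 4 were kept. The strongest lay in a coding exon at chr6:144263251-144263700, with a fold enrichment of 53.0 in control and 66.2 in treated cells, percentiles of 93.8 and 97.6. A second strong peak, in an intron at chr6:144334551-144334950, was kept with 50.3 and 36.9. The remaining kept peaks were both at sites listed as higher in control cells. At chr6:144261151-144261600, at the 3′ end of the gene, the fold enrichment was 30.9 in control and 14.4 in treated cells. At chr6:144426051-144426400, which is intergenic, it was 36.8 and 12.1, and the percentile went from 71.2 to 9.42. The lost peaks, at chr6:144256151-144256300 and chr6:144283751-144283900, had control fold enrichments of 17.2 and 16.5, below those of the 4 kept peaks. No peak was within 1 kb of a PLAGL1 start.

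GRB10 encodes an adaptor protein that binds growth factor receptors and is imprinted in a tissue-dependent way. Its window held 11 control peaks, the most of any locus, of which 6 were kept and 5 were lost. The strongest was in an intron at chr7:50700551-50701000, kept with a fold enrichment of 49.96 in control and 43.4 in treated cells. The strongest lost peak, at chr7:50663251-50663550, had a control fold enrichment of 37.1. It lay in an exon, 137 bp from an annotated GRB10 transcript start in the 3′ part of the gene. In its decile of fold enrichment 18.7% of all control peaks were lost.

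The other lost peaks of GRB10 had control fold enrichments of 26.0, 20.1, 18.2 and 12.1, and 4 of the 5 lost peaks were at sites listed as higher in control cells. Of the kept peaks besides the strongest, 4 had control fold enrichments from 19.3 to 22.5 and treated ones from 8.04 to 15.8. Their control values lie within the range of the lost peaks. The remaining kept peak, in an intron of the neighbouring gene DDC at chr7:50602351-50602550, had 14.8 in control and 25.9 in treated cells. New peaks were found in GRB10 introns at chr7:50709151-50709350, with a fold enrichment of 13.6 and at a site listed as higher in treated cells, and at chr7:50835251-50835400, with 7.55. The latter is at percentile 1.01 of the treated list.

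SNRPN encodes a splicing protein and shares its locus with SNURF and with SNHG14, the host transcript of the SNORD116 snoRNAs. No control or treated peak was within 1 kb of a start of SNRPN, SNURF or SNHG14. Of 4 control peaks in the window, 3 were kept, and none was at a site listed as higher in control cells. The strongest, in an exon of SNHG14 at chr15:25301651-25301850, was centred 257 bp from the start of SNORD116-3. Its fold enrichment was 26.5 in control and 62.6 in treated cells, its width went from 200 to 300 bp, and its percentile from 43.7 to 96.6. This site was listed as higher in treated cells.

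The SNORD116 units are repeated along SNHG14, and reads with more than 1 alignment were removed by the authors, so its neighbouring copies may be underrepresented. The other kept peaks of the SNRPN window, at chr15:25006951-25007150 and chr15:25092251-25092450, had fold enrichments of 23.8 and 20.9 in control and of 21.7 and 13.0 in treated cells. The lost peak at chr15:25222351-25222450, in an intron near the 3′ end of SNRPN, had 12.003. Among these 4 peaks the weakest was the lost one.

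GNAS encodes the stimulatory G protein alpha subunit and has several alternative first exons of different imprinting, and GNAS-AS1 is transcribed from the opposite strand. Of the 6 control peaks in the window 4 were kept. The strongest, at chr20:57445301-57445700 in an intron, had a fold enrichment of 36.3 in control and 32.9 in treated cells. The peak at chr20:57456051-57456400 had 26.6 and 35.7. A control peak 154 bp from an annotated GNAS start, at chr20:57427801-57428050, had 20.0 and 21.3, at percentile 25.6 of the control list and 33.6 of the treated list.

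The kept peak to the right of GNAS, at chr20:57538151-57538500, had a fold enrichment of 26.1 in control and 9.56 in treated cells and lay at a site listed as higher in control cells. The lost peaks were at chr20:57439501-57439750, with 13.9 and at such a site, and at chr20:57525801-57525900, with 6.04, the lowest control fold enrichment of the 42 peaks.

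Both new peaks of the GNAS window lay at transcript starts. One was centred 5 bp from a GNAS-AS1 start, at chr20:57425801-57426100, with a fold enrichment of 24.8 in treated cells. The other, at chr20:57467301-57467550, was centred 37 bp from a GNAS start in an untranslated region, with a fold enrichment of 21.1 and 37 CpGs in 500 bp, the most of any peak in the loci. Both were at sites listed as higher in treated cells. The other new peak at such a site was that of GRB10 named above.

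Of the 42 control peaks, 7 were centred within 1 kb of a transcript start of the imprinted genes or their listed neighbours. The peaks at PEG10-SGCE, PEG3, GNAS and both of MEST were kept, and those at GRB10 and MEG8 were lost. Of the 6 new peaks, 4 were within 1 kb of such a start, at MEG3, at MEG8, at GNAS-AS1 and at GNAS. Both new peaks without one lay in GRB10. The new peaks at GNAS-AS1 and GNAS had an FDR of ChIP over input of at most 1e-05, and the other new peaks had a higher one. Counting any annotated transcript start, 9 of the 42 control peaks were within 1 kb, 21.4% (11.7 to 35.9%), beside 17.8% of all control peaks. By fate these were 7 of 27 kept and 2 of 15 lost peaks, 25.9% and 13.3%, beside 21.3% and 13.1% of all kept and lost peaks. Of the 6 new peaks 5 were near any start, 83.3% (43.6 to 97.0%), beside 38.6% of all new peaks, and 2 loci, DLK1-MEG3 and GNAS, held 4 of these 5.

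Loss was set against strength in control cells, since over all control peaks the share lost falls from 88.2% in the weakest decile of fold enrichment to 7.60% in the strongest. In the weakest 3 deciles, 11 of 19 control peaks of the loci were lost, 57.9% (36.3 to 76.9%), beside 77.3% of all control peaks. In deciles 4 to 7, 2 of 13 were lost, 15.4% (4.33 to 42.2%), beside 39.3%. In the strongest 3 deciles 2 of 10 were lost, 20% (5.67 to 51.0%), beside 13.3%. The value over all peaks is just outside the interval for the weakest 3 deciles and inside it for the others. Neighbouring peaks of a locus are not independent, so these intervals may be too narrow. Within the weakest 3 deciles the gap lay mostly in decile 3, where 2 of 8 were lost, beside 65.7% of all. In deciles 1 and 2, 4 of 5 and 5 of 6 were lost, beside 88.2% and 77.9%. Each of the 5 peaks in the strongest decile, at DLK1-MEG3, PEG10-SGCE, PLAGL1 and GRB10, was kept.

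**Figure D4:**
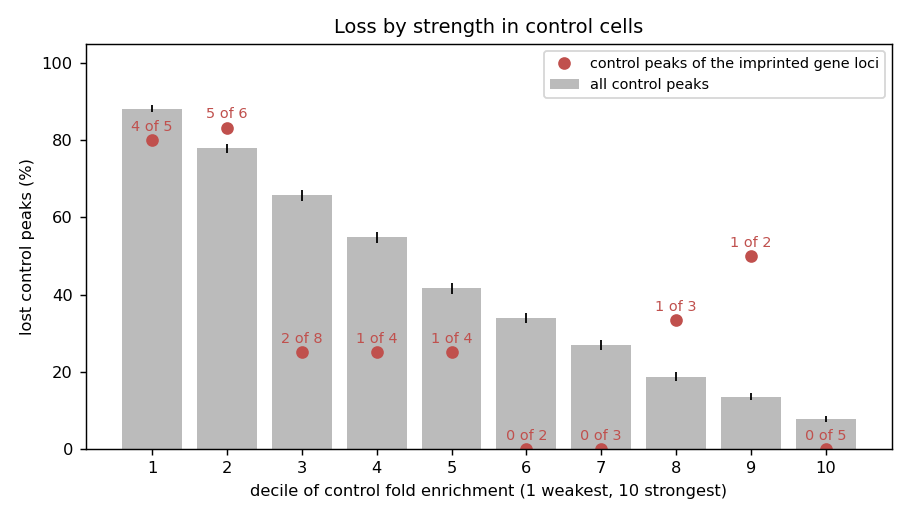
Percent of control peaks lost (y axis) in each decile of control fold enrichment (x axis, 1 weakest), for all control peaks (bars, error bars are Wilson 95% intervals) and for those of the imprinted gene loci (points, labelled with lost of total). Lost peaks of the loci are mostly in deciles 1 and 2, and 2 lie in deciles 8 and 9, those at GRB10 and near RTL1.

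Among the 27 kept peaks, 13 were narrower in treated than in control cells, 7 were wider and 7 had the same width. Over all 27107 kept peaks, 62.4% were narrower, 4073 were wider and 6118 had the same width. The percentile of a kept peak was higher in the treated list for 10 and lower for 17, with a median change of -10.9 percentile points. Over all kept peaks the median change was -9.21, and 35.2% had the higher percentile in the treated list. Single kept peaks of the loci ranged from -61.8 points at the intergenic PLAGL1 peak to 61.8 at PEG3.

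Base composition around the peaks was summarised by fate. The median GC content of 500 bp was 52.6% for kept, 46.8% for lost and 63.9% for new peaks of the loci, beside 48.2%, 43.0% and 59.8% over all peaks of these kinds. The median number of CpGs in 500 bp was 8 for kept and 5 for lost peaks, beside 7 and 4 over all control peaks. It was 17 for the 5 treated peaks at sites listed as higher in treated cells, beside 18 over all such peaks. The new peaks fell into 4 with 25 or more CpGs, at MEG3, MEG8, GNAS-AS1 and GNAS, and those of GRB10 with 5 and 9. No CpG count over all new peaks is given beside these, and new peaks were GC-rich over the whole list as well. CpG counts of kept and lost peaks overlapped. No lost peak had more than 16 CpGs, a count reached by the lost peak near RTL1.

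**Figure D5:**
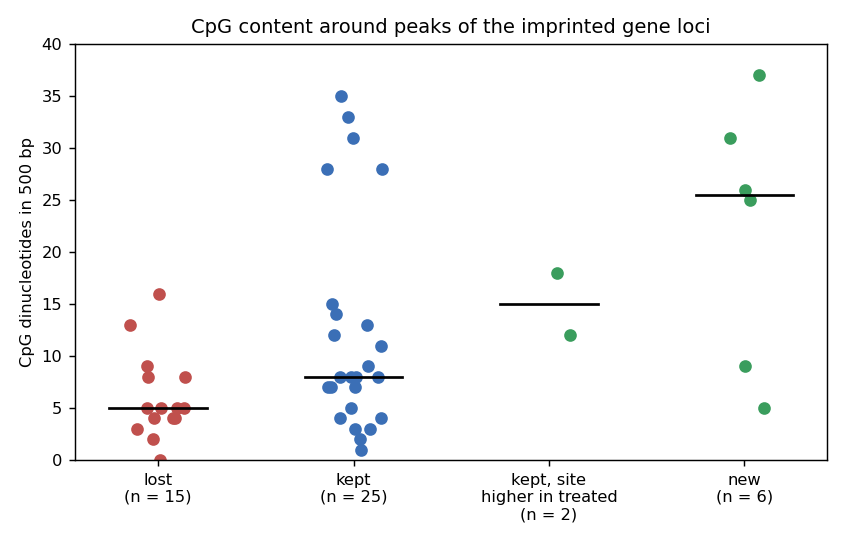
CpG dinucleotides in 500 bp around the peak centre (y axis) for lost, kept and new peaks of the imprinted gene loci, with kept peaks at sites listed as higher in treated cells shown apart (x axis); each point is a peak and bars are medians. Lost peaks range up to 16 CpGs, and 4 of the 6 new peaks hold 25 or more, with no such count over all new peaks given beside them.

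The CTCF core was found in 11 of the 42 control peaks, 26.2% (15.3 to 41.1%), beside 23.3% of all control peaks and 1.34% of windows placed 10 kb away from them. It was found in 9 of 27 kept and 2 of 15 lost peaks, 33.3% and 13.3%, beside 32.4% and 11.1% of all kept and lost peaks. Of the 6 new peaks 2 held it, beside 18.6% of all new peaks. The consensus with at most 1 mismatch was found in 22 of the 42, 52.4%, beside 49.0% of all control peaks. It was found in 15 kept peaks, 55.6%, and in 7 lost peaks, 46.7%, beside 62.2% and 31.5% of all kept and lost peaks. Of the 6 new peaks 5 held it, beside 39.0% of all new peaks. The new peak without one was that at the GNAS start. A match is a description of the letters in the window and no measurement of binding.

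Compared with the imprinted domain of H19, IGF2, KCNQ1 and CDKN1C on chromosome 11, the loci held weaker control peaks, with a median fold enrichment of 23.2 against 41.0. In that domain 8 of 34 control peaks were lost, 23.5% (12.4 to 39.996%), and the intervals of both shares overlap. Around 12 further imprinted genes 24 of 66 control peaks were lost, 36.4% (25.8 to 48.4%), which is near the 35.7% of the loci. New peaks numbered 6 of 32 treated peaks in the chromosome 11 domain and 2 of 44 around the further genes, beside 6 of 33 in the loci. No test of these differences was made, because the lists hold no replicate values.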

How the data were processed

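CTCF ChIP-seq of HT1080 cells was deposited as 4 peak lists. Reads of 8 libraries were mapped by the authors to hg19 with Bowtie2 2.2.3, non-unique reads and duplicates were removed (SAMtools 1.5), and peaks were called with PePr on both replicates of a condition together. The fold enrichment over input is a ratio computed by the authors and deposited per peak. Each peak also has a p-value and an FDR of ChIP over input, as deposited, and the largest FDR was 0.00132 in the control list and 0.00221 in the treated list. The lists of the authors' direct comparison also hold their fold and p-value between conditions, which were not used; only positions were.

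Peaks were placed on GRCh37 with GENCODE v44lift37 genes and compared by any overlap. All peaks of the loci were counted. Peaks described singly were, in each locus, the strongest control, kept and lost peak, every new peak and those within 1 kb of a start of a listed gene, and others were added after their values were seen. GC and CpG were counted over 500 bp. Python 3.11.15, numpy 2.4.6, pandas 2.3.3, pysam 0.24.0 and matplotlib 3.10.9 were used, and routines were tested on simulated data. The genes and lists were chosen with earlier results of these data known. Samples were grouped by their labels. The lists hold only CTCF peaks, so markers of the cell type could not be checked, and neither reads nor signal tracks were analysed here. Thresholds, list length, overlap rule, flank and motif definition were varied.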

Additional observations from a re-analysis of the deposited data

How the results depend on the processing

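No paired analysis was possible because the lists hold 1 value per condition and none per replicate, and leaving out a replicate was not run for the same reason. With both lists limited to an FDR of at most 1e-05, the loci held 18 treated peaks and 51.7% of control peaks were lost, beside 44.03% of all control peaks. With the control list cut to the length of the treated list, 19 control peaks were in the loci. Of these, 3 were lost (15.8%, beside 24.6% of all) and 7 were at sites higher in control cells. At this setting 17 of 33 treated peaks were new, but a shorter control list by itself leaves more treated peaks without an overlapping control peak. For new peaks and peaks at sites higher in control cells, the share over all peaks is given for the main setting only. The paper called a peak remaining if the overlap was over 50% of the larger peak. Under that rule 21 of 42 control peaks were lost (50%, beside 50.7% of all) and 12 treated peaks were new. At over 75%, 28 peaks were lost (66.7%, beside 67.7% of all) and 19 were new. A flank of 50 kb left 0 lost peaks at PEG3. A flank of 200 kb gave 63 control peaks, of which 24 were lost (38.1%, beside 42.9% of all). Of the 63, 26 were at sites higher in control cells, beside 51.2% of all control peaks. Gene bodies alone held 21 control and 20 treated peaks. Of the 21, 6 were lost (28.6%, beside 42.9% of all) and 6 were at sites higher in control cells, beside 51.2% of all. The CTCF consensus with at most 1 mismatch matched 22 control peaks against 11 with the core. The share lost was below that of all control peaks under each setting run on the lists, the overlap or the flank, except at an FDR of at most 1e-05, where it was above. Some of these gaps were very small, such as 50% against 50.7% and 66.7% against 67.7%. The settings reuse largely the same peaks, and the interval of the main share covers the value over all peaks. Their common direction is therefore no result about the loci. Without the left limit of the PEG10-SGCE window the loci held 45 control peaks, and 2 lost peaks were added there. The lists hold no read counts, so what depth limits could not be tested.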

Other observations

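Around other imprinted genes, which were not among the loci above, single windows held 3 to 20 control peaks each. Over all control peaks, 42.9% were lost and 51.2% were at sites listed as higher in control cells. The windows named here are examples chosen after their values were seen. At MAGEL2 and NDN, paternally expressed neighbours of SNRPN, each of 3 control peaks was kept, and at HM13, which encodes a signal peptide peptidase, 12 of 15 were kept. At NAP1L5, 3 of 4 control peaks were lost, the strongest of them with a control fold enrichment of 49.0, and all 4 were at sites listed as higher in control cells. At FAM50B 5 of 8 control peaks were lost and 1 treated peak was new. The strongest control peak of the RB1 window, with a fold enrichment of 50.5, was lost, as was that of UBE3A, the ubiquitin ligase gene that SNHG14 overlaps on the opposite strand, with 45.4. In the chromosome 11 domain, 7 of 20 control peaks of the H19-IGF2 window and 1 of 14 of the KCNQ1-CDKN1C window were lost, and 1 and 5 treated peaks, respectively, were new. These are counts from pooled replicates, with no test.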
